A study of Arabidopsis thaliana with 2 samples.

Results

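The genes described here build, export and regulate the cuticle of the Arabidopsis thaliana stem, the layer of wax and cutin that covers the epidermis. They are 42 genes picked by locus number for their known roles, with earlier results of these data known. All 42 were found among the 33602 loci of the deposited table. RNA came from main stems collected 35 days after flowering in a long-day greenhouse, with 1 library from the hdt1 mutant and 1 from wild-type (WT) plants. HDT1 encodes a plant-specific histone deacetylase of the HD2 type. The sources used here do not give the mutant allele, the ecotype or the number of plants behind a library. Both libraries are labelled as stem, so epidermis was sampled together with all other stem tissue.

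Values are FPKM, which scale a gene's reads by its length and by the depth of the library, so levels of different genes can be set side by side. The depth implied by the values was 23070249 counted reads or read pairs in the hdt1 library, against 21728500 in the WT library. HDT1 itself was at 5.19 FPKM in the hdt1 library, against 52.6 FPKM in the WT library, 10.2-fold lower. With 1 library per genotype there was no replicate check on any difference, and no p-value is given. A fold is a ratio of FPKM values. Its 95% Clopper-Pearson interval, exact for the read counts, stands after it in brackets and holds the error of counting alone, not the variation between plants. Counts of genes past 1.5-fold, and log2 ratios, use log2(FPKM + 1) and the 17811 loci with a mean of at least 1 FPKM. That scale understates the differences of low genes.

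Cuticle lipids start from long-chain fatty acids in epidermal cells. A fatty acid elongase of KCS condensing enzymes, a reductase, a dehydratase and a second reductase lengthens them for wax. Enzymes such as CER1, CER3, CER4 and WSD1 turn the products into alkanes, alcohols and esters. Cutin is a polyester made from shorter hydroxylated acids joined to glycerol. ABCG transporters and lipid transfer proteins carry both out of the cell, and MYB, AP2/ERF and HD-ZIP IV factors set the transcript levels of these enzymes.

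Few members differed by much. DEWAX, an AP2/ERF repressor of wax genes, was 3.68-fold higher in the hdt1 library. LTP2 and LTP1, lipid transfer protein genes that lie next to each other, were 2.02-fold and 1.78-fold higher. KCS1 and KCS2, condensing enzymes of the elongase, were 1.86-fold and 1.83-fold lower. The related activators MYB96, MYB94 and MYB30 were between 1.47-fold and 1.53-fold lower, which is short of the 1.5-fold limit once 1 FPKM is added.

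Of the 42 members, 34 had a mean of at least 1 FPKM. Among these, 3 were past 1.5-fold on the higher side, against 7.04% of all loci compared. Another 2 were past it on the lower side, against 3.21% of all loci. At 2-fold only DEWAX was past the limit on the higher side, against 2.32% of all loci, and no member was past it on the lower side, against 0.741%. The median log2 ratio of the 34 was -0.14, and that of all 17811 loci was -0.03. Of the 34, 21 lay below 0, against 54.0% of all loci, and 13 above it, against 46.0%. The counting interval lay above 1 for 8 of the 34, against 25.1% of all loci, and below 1 for 15, against 29.4%. The 5 members past 1.5-fold are few to set against these shares, and nothing particular to the members is read from them. In bulk stem RNA, fewer cells of a type and less RNA per cell cannot be told apart.

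**Figure D1:**
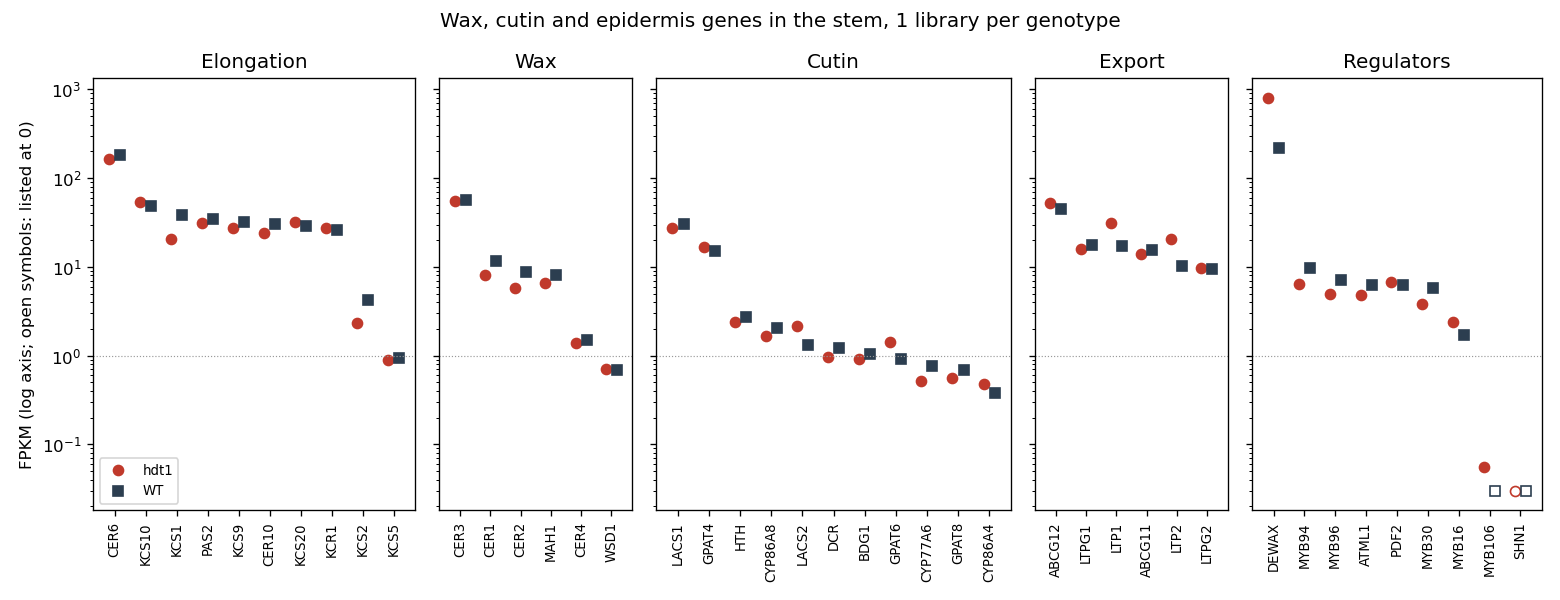
FPKM on a log axis for the 42 members, grouped by role and ordered by the WT level, with the hdt1 library as circles and the WT library as squares (1 library each). CER6 and DEWAX had the highest levels, most cutin genes lay near or under 2 FPKM, and SHN1 was listed at 0 in both libraries.

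The elongase was the most abundant of the enzyme groups, with 385 FPKM summed over its 10 genes in the hdt1 library, against 425 FPKM in the WT library, a ratio of 0.905. CER6 (AT1G68530), the main condensing enzyme of stem wax, was at 166 FPKM in the hdt1 library, against 181 FPKM in the WT library, 1.09-fold lower (1.06 to 1.13). It made up 43.0% of that sum in the hdt1 library, against 42.6% in the WT library. KCS1 (AT1G01120), a condensing enzyme that also acts in wax of stems and seedlings, was at 20.8 FPKM in the hdt1 library, against 38.6 FPKM in the WT library, 1.86-fold lower (1.71 to 2.02). Its log2 ratio ranked 210 from the bottom of the loci compared. KCS2 (AT1G04220), known for suberin and for very long chains, was at 2.31 FPKM in the hdt1 library, against 4.23 FPKM in the WT library, 1.83-fold lower (1.42 to 2.39), from 95 and 164 reads. In the annotation KCS2 overlaps AT1G04210, which had a ratio of 1.03 (0.940 to 1.13).

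The remaining condensing enzymes differed less, and in both directions. KCS9 was at 27.7 FPKM in the hdt1 library, against 32.3 FPKM in the WT library, 1.16-fold lower (1.08 to 1.26). KCS10 (FIDDLEHEAD), which keeps epidermal surfaces from fusing, was at 53.6 FPKM in the hdt1 library, against 48.1 FPKM in the WT library, 1.11-fold higher (1.05 to 1.18). KCS20, a close relative of KCS2, was at 31.6 FPKM in the hdt1 library, against 29.2 FPKM in the WT library, 1.08-fold higher (1.01 to 1.17). KCS5, the nearest relative of CER6, was under the filter at 0.899 FPKM in the hdt1 library, against 0.929 FPKM in the WT library. KCS2 and KCS20 thus stood on opposite sides of WT although they are close relatives. Reads of related genes may not be assigned with certainty, and no sequences were compared here.

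The partner enzymes of the elongase are each encoded by a main gene and serve all chain lengths. KCR1, the ketoacyl reductase, was at 27.7 FPKM in the hdt1 library, against 25.9 FPKM in the WT library, with an interval that includes 1 (0.971 to 1.18). PAS2, the dehydratase, was at 30.8 FPKM in the hdt1 library, against 34.2 FPKM in the WT library, with a ratio of 0.901 (0.812 to 0.999). CER10, the enoyl reductase that closes each cycle, was at 23.8 FPKM in the hdt1 library, against 30.7 FPKM in the WT library, 1.29-fold lower (1.17 to 1.42). CER10 had the lowest ratio of the partners, and it overlaps AT3G55350 in the annotation, a gene at 7.21 FPKM in the hdt1 library, against 7.27 FPKM in the WT library. Of the 9 elongase genes compared, 6 were below 0, against 54.0% of all loci, and 3 above it, against 46.0%. Their median log2 ratio was -0.15.

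Since KCS genes act side by side, the make-up of the whole family was also examined. Its 21 genes summed to 371 FPKM in the hdt1 library, against 384 FPKM in the WT library, and 11 of them passed the filter. KCS1 held 5.60% of the KCS sum in the hdt1 library, against 10.04% in the WT library. KCS12 (AT2G28630), which is not among the 42 members, held 6.92% in the hdt1 library, against 1.96% in the WT library. KCS12 was at 25.7 FPKM in the hdt1 library, against 7.55 FPKM in the WT library, 3.41-fold higher (3.01 to 3.87), and KCS8 was at 6.33 FPKM in the hdt1 library, against 2.01 FPKM in the WT library, 3.14-fold higher (2.42 to 4.13). The summed KCS levels lay close together, while KCS12 stood above KCS1 in the hdt1 library and below it in the WT library.

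**Figure D2:**
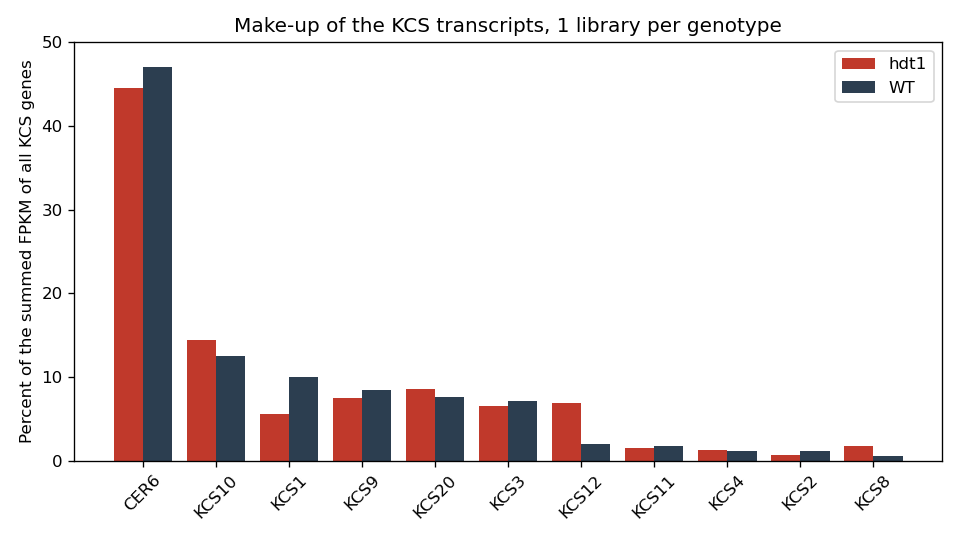
Share of each KCS gene in the summed FPKM of all 21 KCS genes, in percent, with the hdt1 library left of the WT library (1 library each, so no error bar), for the 11 genes that passed the filter. CER6 held 44.6% in the hdt1 library, against 47.1% in the WT library, KCS1 was lower and KCS12 higher in the hdt1 library.

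Of the 6 wax genes, all but CER2 act on the finished chains. CER2 (AT4G24510), which lets the elongase make the longest chains of stem wax, was at 5.76 FPKM in the hdt1 library, against 8.85 FPKM in the WT library, 1.54-fold lower (1.28 to 1.84). Its annotated span overlaps ATR1, a P450 reductase gene at 90.5 FPKM in the hdt1 library, against 85.3 FPKM in the WT library. The sources used here do not say whether reads were counted by strand. CER1 (AT1G02205), of the alkane-forming complex, was at 8.11 FPKM in the hdt1 library, against 11.7 FPKM in the WT library, 1.44-fold lower (1.26 to 1.64). CER3 (AT5G57800), the partner of CER1 in that complex, was at 56.0 FPKM in either library, with a ratio of 0.999 (0.950 to 1.05). The partners of the alkane complex thus differed: CER3 was 6.90 times as abundant as CER1 in the hdt1 library, against 4.80 times in the WT library.

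MAH1 (AT1G57750), the P450 that turns stem alkanes into secondary alcohols and ketones, was at 6.61 FPKM in the hdt1 library, against 8.16 FPKM in the WT library, 1.24-fold lower (1.04 to 1.47). CER4, which makes primary alcohols, was at 1.40 FPKM in the hdt1 library, against 1.48 FPKM in the WT library, from 55 reads in each, and its interval includes 1. WSD1, the wax ester synthase, was under the filter at 0.708 FPKM in the hdt1 library, against 0.696 FPKM in the WT library. All 5 wax genes compared had log2 ratios below 0, against 54.0% of all loci. Their median was -0.27, with a range from -0.54 to -0.00. With any of the 3 other scalings CER3 lay above 0, which leaves 4 of 5 below it. Without rescaling, the intervals lay below 1 for CER1, CER2 and MAH1, against 29.4% of all loci, and included 1 for CER3 and CER4. None of the 5 reached 1.5-fold with 1 FPKM added.

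The 11 cutin genes had low levels, and 4 of them were under the filter. LACS1 (AT2G47240), an acyl-CoA synthetase that feeds wax as well as cutin, was at 27.2 FPKM in the hdt1 library, against 30.5 FPKM in the WT library, 1.12-fold lower (1.04 to 1.20). GPAT4 (AT1G01610), a glycerol acyltransferase, was at 16.8 FPKM in the hdt1 library, against 15.2 FPKM in the WT library, with an interval that includes 1 (0.995 to 1.24). These 2 genes held most of the summed cutin level, of which LACS1 alone made up 49.4% in the hdt1 library, against 53.7% in the WT library.

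LACS2 (AT1G49430), the acyl-CoA synthetase most tied to cutin, was at 2.16 FPKM in the hdt1 library, against 1.33 FPKM in the WT library, 1.63-fold higher (1.20 to 2.24), from 116 and 67 reads. GPAT6 (AT2G38110), known for cutin of flowers, was at 1.43 FPKM in the hdt1 library, against 0.923 FPKM in the WT library, 1.55-fold higher (1.02 to 2.40), from 61 and 37 reads. With 1 FPKM added neither reached the 1.5-fold limit. LACS1 and LACS2, which overlap in function, stood on opposite sides of WT, and LACS1 was 12.6 times as abundant as LACS2 in the hdt1 library, against 23.0 times in the WT library.

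All other cutin genes had intervals that include 1. HTH, an epidermal gene whose loss fuses organs, was at 2.36 FPKM in the hdt1 library, against 2.73 FPKM in the WT library. CYP86A8, a fatty acid hydroxylase, was at 1.66 FPKM in the hdt1 library, against 2.04 FPKM in the WT library. DCR, an acyltransferase, was at 0.957 FPKM in the hdt1 library, against 1.21 FPKM in the WT library. BDG1, an epidermal hydrolase-like protein, was at 0.913 FPKM in the hdt1 library, against 1.05 FPKM in the WT library. The hydroxylases CYP77A6 and CYP86A4 and the acyltransferase GPAT8 lay between 0.481 and 0.556 FPKM in the hdt1 library, and between 0.383 and 0.768 FPKM in the WT library. They rest on 21 to 24 reads in the hdt1 library, against 18 to 29 reads in the WT library. The intervals of all 3 include 1 and are wide at this depth. CYP86A4 lies next to GPAT4 in the annotation, and GPAT4 was 35.0 times as abundant in the hdt1 library, against 39.6 times in the WT library.

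The wax and the cutin genes were also set side by side as groups, with no test. The median log2 ratio was -0.27 for the 5 wax genes and -0.15 for the 7 cutin genes compared, a difference of -0.12. The difference was -0.01 with CER2 counted among the elongation genes and -0.03 with the elongation genes counted as wax. It was -0.30 with means in place of medians, and -0.36 with a mean of at least 5 FPKM, where 4 wax and 2 cutin genes were left. It was below 0 under all 13 alternatives tried, and its size moved with the genes and the summary used. All 13 use the same 2 libraries, so the shared sign is not independent support. Further genes outside the members, described below, had medians of 0.16 for elongation and wax together and 0.04 for cutin and export together. These lists pool other roles with wax and with cutin, so they do not repeat the comparison of wax with cutin. Of the 5 wax members 3 had intervals below 1 and none above. Of the 7 cutin members 1 had an interval below 1 and 2 above. The shares of all loci were 29.4% below 1 and 25.1% above. These counts hold without rescaling. Multiplied by 1.044, the largest of the other scalings, the intervals of MAH1 (up to 0.960) and LACS1 (up to 0.960) would include 1. That of GPAT4 (from 0.995) would lie above 1 under any of the 3 other scalings. GPAT6, 1 of the 2 cutin members with intervals above 1, was at 0.923 FPKM in the WT library. It passed the filter only through its level of 1.43 FPKM in the hdt1 library. Its place in this count and in the cutin median is thus not independent of its difference. DCR, at 0.957 FPKM in the hdt1 library, passed the filter only through its level of 1.21 FPKM in the WT library. The same limit holds for its place among the 7. With no filter the wax minus cutin difference was -0.04. The summed level was 78.5 FPKM for wax in the hdt1 library, against 86.9 FPKM in the WT library, 1.11-fold lower, and 55.1 FPKM for cutin in the hdt1 library, against 56.8 FPKM in the WT library, 1.03-fold lower. The FPKM of all loci also summed to less in the hdt1 library, by 1.04-fold.

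**Figure D3:**
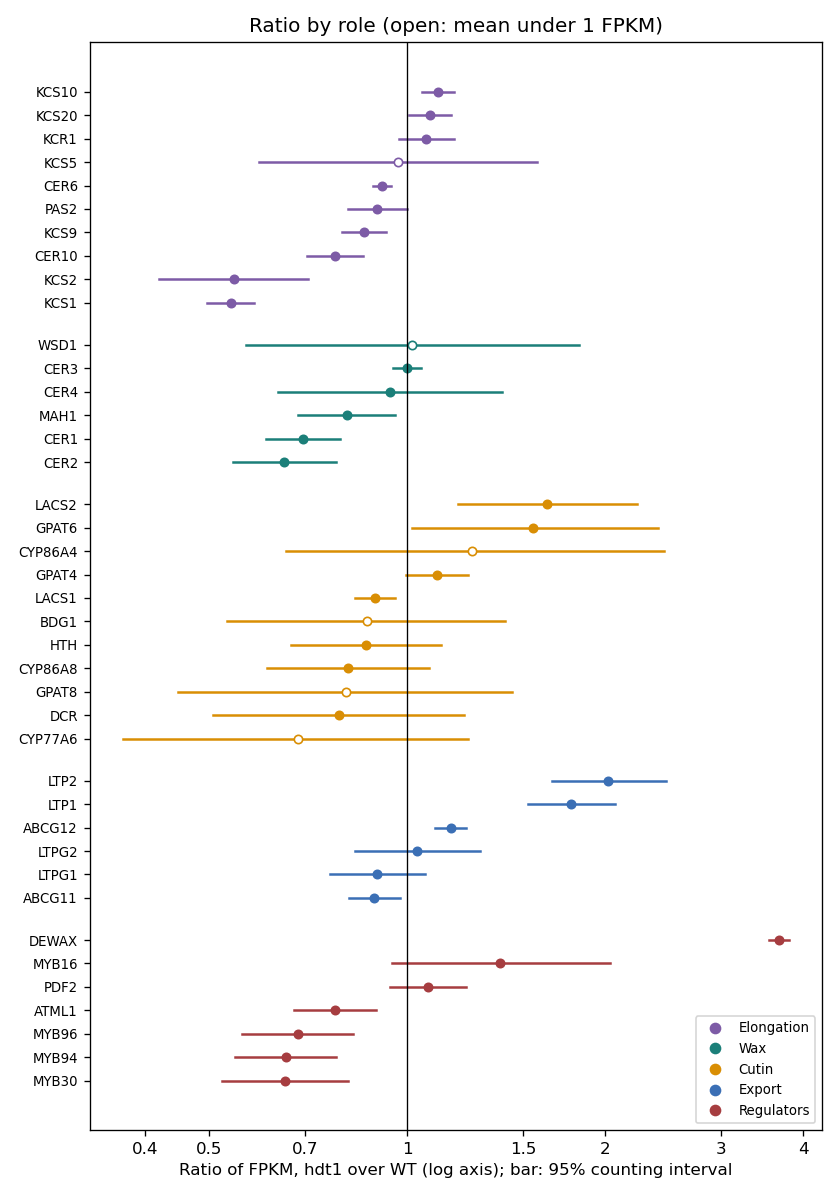
Ratio of FPKM, hdt1 over WT, on a log axis for the 40 members with more than 3 reads in a library, by role, with bars for the 95% counting interval and open symbols for a mean under 1 FPKM. DEWAX lies far to the right, LTP1 and LTP2 near 2, and KCS1, KCS2, CER2, CER1, MYB96, MYB94 and MYB30 to the left of 1.

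The export genes were the only group with a median above 0, at 0.13 over 6 genes. Of these, 4 were above 0, against 46.0% of all loci, and 2 below, against 54.0%. Apart from LTP1 and LTP2, the log2 ratios lay on both sides of 0. They were 0.21 for ABCG12 and 0.05 for LTPG2, against -0.14 for LTPG1 and -0.15 for ABCG11. LTP1 (AT2G38540) and LTP2 (AT2G38530), small secreted lipid-binding proteins abundant in epidermis, are neighbours in the annotation. LTP1 was at 30.8 FPKM in the hdt1 library, against 17.3 FPKM in the WT library, 1.78-fold higher (1.53 to 2.07). LTP2 was at 20.7 FPKM in the hdt1 library, against 10.2 FPKM in the WT library, 2.02-fold higher (1.66 to 2.47). Of the flanking genes, AT2G38550 had a ratio of 0.869 (0.805 to 0.938), below 1. AT2G38520, with 10 reads in the hdt1 library, against 11 reads in the WT library, had a ratio of 0.856 and an interval (0.326 to 2.22) that holds 1 as well as the folds of LTP1 and LTP2. Reads of similar gene copies cannot be told apart with certainty, so the LTP1 and LTP2 values may not be independent.

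The transporters differed less. ABCG12 (CER5), a wax exporter, was at 52.2 FPKM in the hdt1 library, against 44.9 FPKM in the WT library, 1.16-fold higher with an interval above 1. ABCG11, which pairs with ABCG12 for wax and acts alone for cutin, was at 13.9 FPKM in the hdt1 library, against 15.6 FPKM in the WT library, 1.12-fold lower (1.03 to 1.23). ABCG12 was thus 3.75 times as abundant as ABCG11 in the hdt1 library, against 2.87 times in the WT library. The membrane-anchored lipid transfer proteins LTPG1 and LTPG2 had intervals that include 1. LTPG1 was at 15.9 FPKM in the hdt1 library, against 17.6 FPKM in the WT library, and LTPG2 was at 9.71 FPKM in the hdt1 library, against 9.38 FPKM in the WT library.

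Among the regulators, DEWAX (AT5G61590) had the largest difference of all members. It represses wax genes in Arabidopsis, CER1, CER10 and LACS2 among them, and its transcript is known to be higher in darkness. The sources used here do not give the harvest hour. DEWAX was at 799.8 FPKM in the hdt1 library, against 218 FPKM in the WT library, 3.68-fold higher (3.55 to 3.80), from 16366 and 4193 reads. In level it ranked 81 of all loci in the hdt1 library, against 592 in the WT library, and its log2 ratio of 1.87 ranked 49 from the top of the 17811 compared. The next gene in the annotation, ERF104, of the same factor family, was at 765 FPKM in the hdt1 library, against 422 FPKM in the WT library, 1.81-fold higher (1.77 to 1.86). PFK4, on the other side, was at 20.0 FPKM in the hdt1 library, against 21.3 FPKM in the WT library, with an interval that includes 1.

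Of the wax and cutin genes that DEWAX is known to repress, CER1 and CER10 were 1.44-fold and 1.29-fold lower in the hdt1 library, and LACS2 was 1.63-fold higher. The values thus went in both directions among these 3 genes. Their relation to DEWAX was not tested.

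MYB96, MYB94 and MYB30 are closely related activators of genes for very long chains and wax. The relation of their levels to those of the genes they activate was not tested. MYB96 was at 4.89 FPKM in the hdt1 library, against 7.18 FPKM in the WT library, 1.47-fold lower (1.21 to 1.79). MYB94 was at 6.42 FPKM in the hdt1 library, against 9.82 FPKM in the WT library, 1.53-fold lower (1.28 to 1.83). MYB30 was at 3.81 FPKM in the hdt1 library, against 5.84 FPKM in the WT library, 1.53-fold lower (1.23 to 1.91). Together they summed to 15.1 FPKM in the hdt1 library, against 22.8 FPKM in the WT library. DEWAX was 164 times as abundant as MYB96 in the hdt1 library, against 30.3 times in the WT library.

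The other regulators were low or close to WT. MYB16, a MIXTA-type factor of cutin and epidermal cell shape, was at 2.38 FPKM in the hdt1 library, against 1.72 FPKM in the WT library, with an interval that includes 1 (0.949 to 2.03). Its relative MYB106 had 2 reads in the hdt1 library, against none in the WT library, and SHN1, an AP2/ERF activator of cutin, was listed at 0 in both. A count of 0 allows up to 3 reads, or 0.130 FPKM in the hdt1 library, against 0.138 FPKM in the WT library for a gene of 1000 bases. ATML1 and PDF2 are the HD-ZIP IV factors that set epidermal identity. ATML1 was at 4.87 FPKM in the hdt1 library, against 6.26 FPKM in the WT library, 1.29-fold lower (1.11 to 1.49), whereas PDF2 was at 6.73 FPKM in the hdt1 library, against 6.25 FPKM in the WT library, with an interval that includes 1. Of the 7 regulators compared 4 were below 0, against 54.0% of all loci, and 3 above, against 46.0%. Their median of -0.31 lies beside the value of 1.87 for DEWAX.

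**Figure D4:**
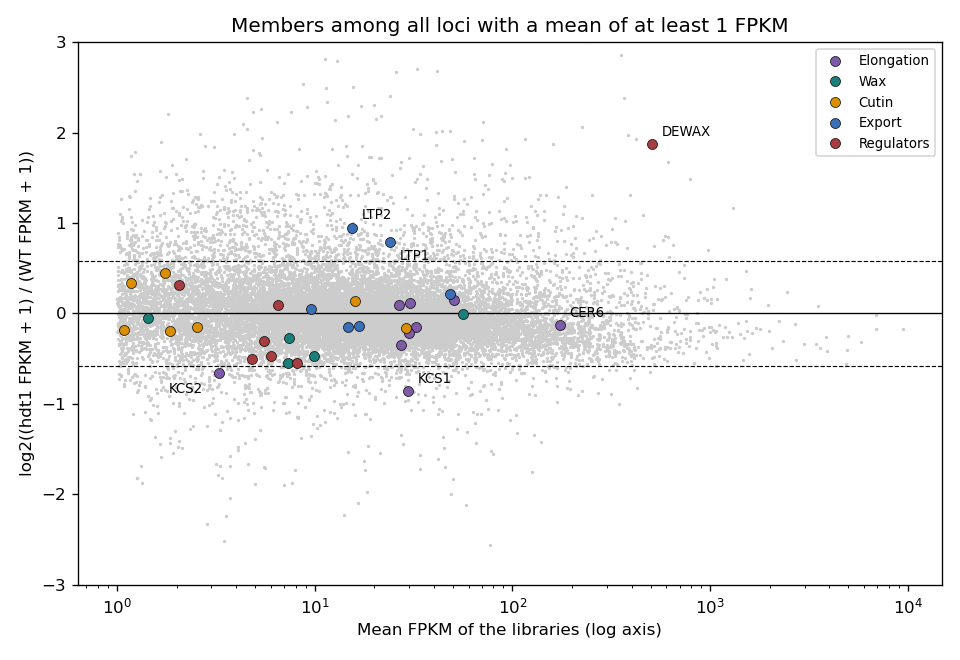
log2 ratio with 1 FPKM added, hdt1 over WT, against mean FPKM (log axis), with all 17811 loci compared in grey and the 34 members that entered coloured by role; dashed lines mark 1.5-fold, and 7 loci beyond 3 on the log2 scale are outside the axis. DEWAX, LTP1 and LTP2 lie above the upper line, KCS1 and KCS2 below the lower line, and the other members between them.

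Genes of the same pathways outside the 42 members were taken from lists, also chosen with earlier results of these data known. Of 30 further elongation and wax genes 18 entered, 13 of them above 0, against 46.0% of all loci, and 5 below. Their median was 0.16. This lies on the other side of 0 from the elongation and wax members. Besides KCS12 and KCS8, AT5G12420, described as WSD1-like, was past 1.5-fold, against 7.04% of all loci. It was at 8.55 FPKM in the hdt1 library, against 4.67 FPKM in the WT library. None of the 18 was 1.5-fold lower, against 3.21%. Under the filter, CER26 was 2.55-fold lower (1.36 to 5.01), from 15 and 36 reads, and CER26-LIKE 2.04-fold lower (1.01 to 4.35). CER1-LIKE1 had 0 reads in the hdt1 library, against 8 reads in the WT library. In the other direction, KCS16 was 2.23-fold higher (1.06 to 4.99), from 26 and 11 reads. Of 11 further cutin and export genes 7 entered, with a median of 0.04 and none past 1.5-fold. Of 16 further regulators 9 entered, with a median of 0.05, and SHN3, a relative of SHN1, was at 3.87 FPKM in the hdt1 library, against 1.96 FPKM in the WT library, 1.98-fold higher (1.35 to 2.94). Of 12 suberin genes 3 entered, with a median of 0.13 and none past the limit.

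Markers of cell types, from lists chosen in the same way, were read beside these results. The epidermis markers were ATML1, PDF2, CER6, CER1, KCS10 and LTP1, all 6 of them members. Of these, 3 were above 0, against 46.0% of all loci, and 3 below. The 6 summed to 269.6 FPKM in the hdt1 library, against 270.6 FPKM in the WT library. CER6 held most of that sum, at 166 FPKM in the hdt1 library, against 181 FPKM in the WT library. LTP1 went the other way, at 30.8 FPKM in the hdt1 library, against 17.3 FPKM in the WT library. Being members themselves, these genes give no separate measure of the amount of epidermis. Stomata markers had a median of 0.02 over the 4 of 9 that entered, and the other 5 were under 1 FPKM, with SPCH at 0 in both libraries. Trichome markers had a median of 0.19 over the 3 of 5 that entered, of which TRY was 2.04-fold higher. All 8 xylem and fibre markers were above 0, against 46.0% of all loci, and 7 were past 1.5-fold, against 7.04%. CESA7 was 3.59-fold, LAC4 3.36-fold, CESA4 2.65-fold and CESA8 2.55-fold higher. XCP1, 1 of the 7, passed the filter only through its level of 2.21 FPKM in the hdt1 library, against 0.924 FPKM in the WT library. LAC4, a laccase of lignin formation, was at 76.2 FPKM in the hdt1 library, against 22.7 FPKM in the WT library. The 8 summed to 199.9 FPKM in the hdt1 library, against 78.6 FPKM in the WT library. The 4 phloem markers had a median of 0.35, with SEOR1 2.10-fold higher, and summed to 463 FPKM in the hdt1 library, against 369.7 FPKM in the WT library. The 3 cambium markers had a median of 0.38, with PXY 1.68-fold higher, and summed to 38.8 FPKM in the hdt1 library, against 25.2 FPKM in the WT library. The 3 green tissue markers had a median of -0.09 and went in both directions. LHCB1.1 was 1.18-fold higher (1.15 to 1.21), RBCS1A 1.06-fold lower (1.05 to 1.08) and CA1 1.41-fold lower (1.27 to 1.57). None of the 5 flower and seed markers entered. The part of cell type make-up in the cuticle gene values was not tested.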

How the data were processed

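The authors deposited 1 table with an FPKM value for each of 33669 features in both libraries. Per the submitters' processing notes, the tools were HTSeq 0.6.1, TopHat2 2.0.12 and Bowtie2 2.2.3, with roles unstated. The sources used here do not give the build, the annotation or the strand setting. The 67 features with no locus identifier were left out. Names and neighbours came from RefSeq TAIR10.1 by locus.

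Low FPKM values lie on whole multiples of what 1 read is worth, which gave the totals and whole reads for 21796 features within a relative error of 1.53e-14. The multiple was settled from annotated transcript lengths for 37 of 42 members, with the smallest whole numbers used otherwise (KCR1, LTPG1, LTP2 and DEWAX). Over all features the reads sum to 101.3% of the hdt1 total and 101.4% of the WT total, so a few multiples are too large and their intervals too narrow. The recovery was tested on simulated data.

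Python 3.11.15, pandas 2.3.3 and scipy 1.17.1 were used. log2 ratios took a pseudocount of 1 FPKM, a mean of at least 1 FPKM and a limit of 1.5-fold. The genes named by rule are HDT1, all 42 members and, of each other list, up to 4 genes past 1.5-fold by absolute log2 ratio. Marker genes at 0, genes that overlap or flank a member, and some genes that the filter or a median would hide are named besides. Members and lists were chosen with earlier results of these data known. Of the 42 members 7 overlap another annotated gene. The alternatives are in the closing section. Promoter motifs were not analysed here.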

Additional observations from a re-analysis of the deposited data

How the results depend on the processing

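The 5 members past 1.5-fold (DEWAX, LTP1, LTP2, KCS1 and KCS2) were the same under each of the 3 other scalings, with no filter and with the gene length trend removed. With a pseudocount of 0.1 FPKM 9 members were past the limit, 4 higher and 5 lower, against 8.75% and 4.70% of all loci at that setting; LACS2, CER2, MYB30 and MYB94 were added, by the smaller pseudocount alone. With a pseudocount of 5 FPKM, or a mean of at least 5 FPKM, 1 member (KCS1) was lower, against 1.40% and 2.64% of all loci at those settings. At 2-fold 1 member was past the limit, 1 higher and 0 lower. The median log2 ratio of the members was below 0 under all 8 alternatives. The wax minus cutin difference was below 0 under all 13 alternatives, which all use the same 2 libraries. It was -0.36 with a mean of at least 5 FPKM, where 4 wax and 2 cutin genes were left. It was -0.04 with no filter, -0.03 with the elongation genes counted as wax and -0.01 with CER2 counted as elongation. Of 120 folds under other scalings none reversed a called value, and 4 left their counting interval, those of CER6 (0.955 and 0.951) and DEWAX (3.84 and 3.82). Intervals that end near 1, those of MAH1, LACS1 and GPAT4 among them, can come to include or exclude 1 when scaled. No paired analysis was possible because each genotype has 1 library. Members under 1 FPKM rest on 38 reads or fewer per library, which limits what can be seen for GPAT8, CYP86A4, CYP77A6, BDG1, KCS5 and WSD1.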
